A study of Mus musculus with 8 samples.

Results

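Interferon response genes are described here in mouse liver as a set of 36 genes that were measured under 4 combinations of maternal and post-weaning diet. The members were taken by name: every non-control probe whose gene name in the array files equalled one of the 36 symbols was collected, and the probe with the highest mean stood for its gene. All 36 members were measured, through 56 probes of which 52 passed the filter on dim probes, and they were part of 17354 genes tested. By role, 2 members are sensors of viral RNA, 5 are transcription factors, 2 are the ubiquitin-like modifier Isg15 and its protease Usp18, 19 are antiviral effectors, 4 are GTPases of the interferon-gamma response, and 4 serve antigen processing.

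Liver RNA of male C57Bl/6J mice, collected at 14 weeks of age after a short fast, was hybridised to single-colour Agilent arrays, 1 sample to an array and 2 samples to a group. In the BD_HF group the dam ate a standard breeder diet and the pups a high fat diet (60% of energy from fat) from weaning. In the LF_HF group the pups ate the same high fat diet, while the dam was put at embryonic day 10.5 on a defined diet low in fat (12% of energy) and sufficient in vitamin A. In the VAD_VAD group both dam and pups ate a vitamin A deficient diet of the same low fat content. In the LF_LF group both ate the low fat diet with sufficient vitamin A. As in LF_HF, the dams of VAD_VAD and LF_LF were put on their defined diet at embryonic day 10.5. All dams were on the breeder diet up to any switch, and all mice were of 1 inbred strain with no engineered allele named in the labels. Whether each sample was a separate animal is not stated, so p-values measure only the spread between these samples.

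Interferons are secreted proteins, and those of type I are released by cells after sensing viral nucleic acid. Type I interferons act through the receptor Ifnar1 and Ifnar2 and a complex that holds Stat2 and Irf9, which binds the interferon-stimulated response element (ISRE) in the promoters of many of these genes, while interferon gamma acts at gamma-activated sites (GAS). In liver these genes are expressed by hepatocytes as well as by resident and recruited immune cells. In laboratory strains of this kind the antiviral proteins Mx1 and Mx2 are known to be defective, although their transcripts can still be induced.

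A promoter window, from 250 bases before to 50 bases after the annotated start, was found in RefSeq (GRCm38.p6) for 30 of the 36 members. The ISRE core (GAAA, any 2 bases, GAAA), searched on both strands, was in the windows of 16 of these 30 members (53.3%), against 3.99% of 27025 genes. A longer form (GAAAC, any 1 base, GAAAC) was in 7 of the 30 (23.3%), against 0.241% of genes, and the GAS letters TTCNNNGAA, which read the same on both strands, were in 10 of the 30 (33.3%), against 9.55% of genes. The 250 bases before the start are printed for 7 members that the results below turn on or that show how the ISRE letters are arranged. All of these but Tap1 held the ISRE core, so they do not stand for the 30 members. Oasl2, Irf8 and Ifit2, which the results below also turn on, held no ISRE core in their windows and are not printed. Each reads 5′ to 3′ on the strand of its gene, and capitals mark the ISRE core. On the opposite strand it appears as TTTC, any 2 bases, TTTC, and successive matches can overlap, which makes longer runs of capitals.
Isg15: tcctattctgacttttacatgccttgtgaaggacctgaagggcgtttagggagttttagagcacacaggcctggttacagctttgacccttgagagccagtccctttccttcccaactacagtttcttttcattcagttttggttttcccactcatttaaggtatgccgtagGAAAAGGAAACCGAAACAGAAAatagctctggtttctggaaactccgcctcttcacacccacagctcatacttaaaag
Oas1a: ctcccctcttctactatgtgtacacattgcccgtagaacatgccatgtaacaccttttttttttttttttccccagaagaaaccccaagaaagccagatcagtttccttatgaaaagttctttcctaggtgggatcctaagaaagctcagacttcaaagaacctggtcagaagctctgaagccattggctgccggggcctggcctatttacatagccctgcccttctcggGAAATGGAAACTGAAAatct
Oas3: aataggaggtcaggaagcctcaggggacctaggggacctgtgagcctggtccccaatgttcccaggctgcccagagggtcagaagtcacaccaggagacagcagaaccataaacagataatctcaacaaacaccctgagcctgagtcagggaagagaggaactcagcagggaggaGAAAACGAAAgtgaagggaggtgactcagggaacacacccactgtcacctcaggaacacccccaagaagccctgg
Rsad2: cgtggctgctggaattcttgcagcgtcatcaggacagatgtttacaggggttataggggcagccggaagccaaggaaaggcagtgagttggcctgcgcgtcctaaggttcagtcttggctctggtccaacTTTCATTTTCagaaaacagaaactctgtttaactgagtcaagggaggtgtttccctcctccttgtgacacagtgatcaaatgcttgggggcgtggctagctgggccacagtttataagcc
Ifit1: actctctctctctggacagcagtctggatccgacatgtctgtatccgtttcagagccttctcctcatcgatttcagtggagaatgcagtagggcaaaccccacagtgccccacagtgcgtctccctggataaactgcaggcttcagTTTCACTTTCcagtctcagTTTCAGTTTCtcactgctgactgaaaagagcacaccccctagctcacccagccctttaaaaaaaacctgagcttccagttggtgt
Gbp2: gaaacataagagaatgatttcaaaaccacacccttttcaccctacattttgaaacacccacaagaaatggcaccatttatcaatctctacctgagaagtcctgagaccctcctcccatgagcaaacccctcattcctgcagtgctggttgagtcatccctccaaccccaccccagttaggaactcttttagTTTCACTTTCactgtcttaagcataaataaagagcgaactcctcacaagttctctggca
Tap1: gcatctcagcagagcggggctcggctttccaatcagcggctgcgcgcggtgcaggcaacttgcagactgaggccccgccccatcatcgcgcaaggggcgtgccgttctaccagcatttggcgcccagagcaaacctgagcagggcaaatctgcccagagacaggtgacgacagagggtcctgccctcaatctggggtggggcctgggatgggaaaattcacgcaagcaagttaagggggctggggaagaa
All 7 stretches lie upstream of the annotated transcript in GRCm38.p6. Isg15 is at chr4:156200819-156201068 (minus strand), Oas1a is at chr5:120907526-120907775 (minus strand), Oas3 is at chr5:120777660-120777909 (minus strand), Rsad2 is at chr12:26456453-26456702 (minus strand). Ifit1 is at chr19:34640639-34640888 (plus strand), Gbp2 is at chr3:142620413-142620662 (plus strand), Tap1 is at chr17:34187306-34187555 (plus strand).

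Isg15, whose product is attached to other proteins like ubiquitin, held 3 overlapping matches, whose first bases are at -78, -72 and -66 relative to the start. Oas1a, which makes the short oligoadenylates that switch on an RNase, held 2 overlapping matches at -20 and -14, the nearest to a start among the printed members. Oas3, another oligoadenylate synthetase, held 1 match at -75 and Rsad2 (viperin, an enzyme that makes a chain-terminating nucleotide) held 1 at -120. Ifit1, which binds foreign 5′ ends of RNA, held 2 separate matches at -104 and -85, and the guanylate-binding protein Gbp2 held 1 at -59. Tap1, a subunit of the transporter that loads peptides onto MHC class I, held no ISRE core in its window. Tap1 and the immunoproteasome subunit Psmb9 are divergent neighbours whose windows share 275 of 300 bases. Over all members there were 25 matches, 12 members had a match that starts before the gene's start, 4 had matches only after it, and 8 had 2 or more. These matches describe letters in a window and are not evidence of binding.

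**Figure D1:**
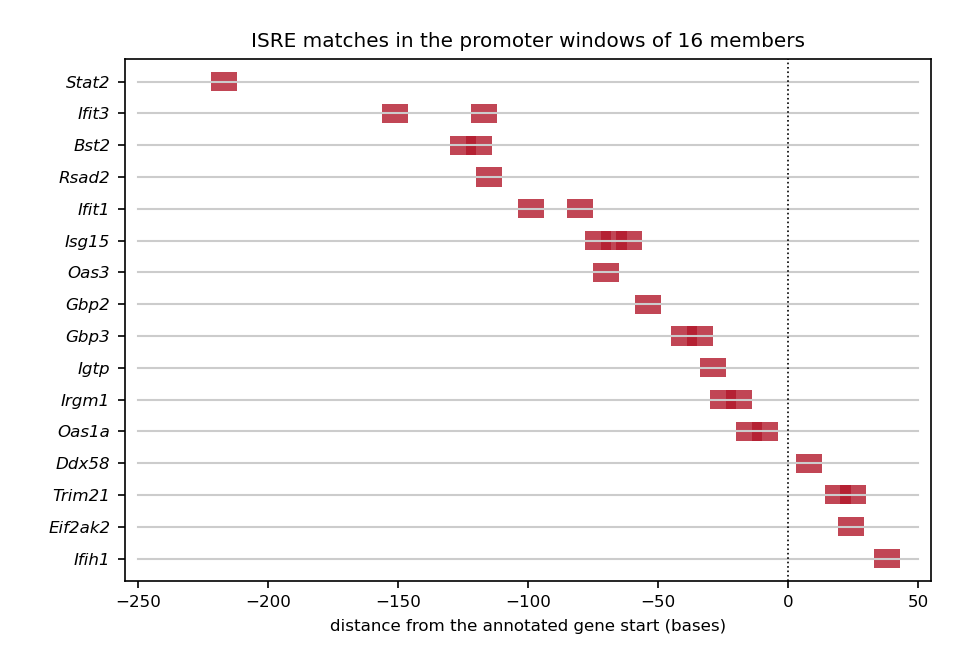
The x axis is the distance in bases from the annotated start of each gene (dotted line), and each row is 1 of the 16 members with an ISRE match; boxes are matches of the ISRE core on either strand, darker where 2 overlap. First bases of matches lie between -222 (Stat2) and 33 (Ifih1).

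Levels below are log2 processed signal minus the array's 75th percentile on the same scale, so a value of 0 means the signal of the 75th percentile probe and a step of 1 is a doubling of signal. Of the 36 members, 33 were well above background on all 8 arrays. Mx1 was above background on both LF_LF arrays, 1 VAD_VAD array and 1 LF_HF array, Oas3 was not well above background on 1 BD_HF and 1 LF_HF array, and Tap2 had no value on LF_HF replicate 1.

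The array of LF_HF replicate 1 stood apart from the other 7. The scanner software called 82.2% of its probes well above background, compared with 56.5% to 64.2% elsewhere, and marked 2707 of its spots as outliers, compared with 46 to 316. It read dim genes higher and bright genes lower than LF_HF replicate 2: the median difference between these arrays was 1.93, 0.35, -0.53 and -0.88 from the dimmest to the brightest of 4 equal bins of genes, which hold 2, 6, 17 and 11 members. The SD of replicate differences over all genes was 0.555 in BD_HF, 1.47 in LF_HF, 0.711 in VAD_VAD and 0.408 in LF_LF. Of 35 members with a value there, LF_HF replicate 1 lay above all other arrays for 4, below all for 7 and inside their range for 24. Results are therefore given with all 8 arrays and again without it; in the second fit the lone LF_HF array is assumed to vary like the other groups. Hepatocyte markers, Alb among them, were measured for 11 genes, and 10 or 11 of them were well above background on every array.

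**Figure D2:**
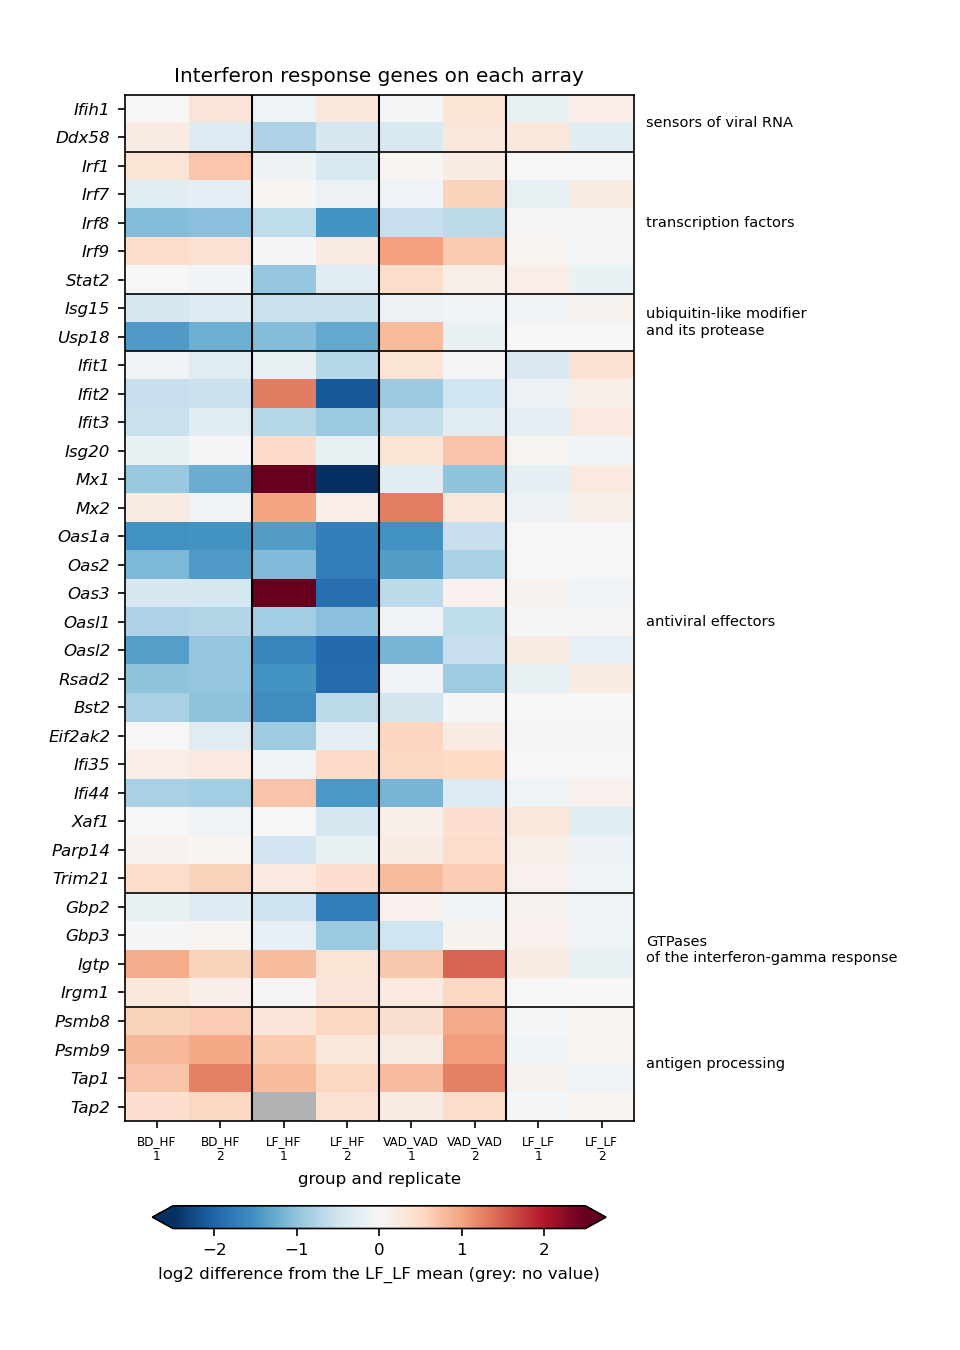
Rows are the 36 members in their roles and columns the 8 arrays; colour is the log2 difference from the mean of the 2 LF_LF arrays (blue lower, red higher, grey no value, differences beyond 2.5 shown at the end of the scale). Antigen processing genes are red on the 6 arrays of BD_HF, LF_HF and VAD_VAD except for the missing Tap2 value, while Oas1a, Oas2, Oasl1, Oasl2, Rsad2 and Irf8 are mostly blue there; Mx1, Oas3 and Ifit2 are red on LF_HF replicate 1 and blue on LF_HF replicate 2.

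LF_HF and LF_LF shared their maternal diet and differed in fat content after weaning. With all 8 arrays, 0 of 36 members passed the test (limma, Benjamini-Hochberg adjusted p under 0.05), where 2.49% of all genes passed, 1.87% as lower and 0.617% as higher. Unadjusted, 10 members (27.8%) had a p under 0.05, each of them lower in LF_HF, where 16.6% of all genes did, 9.32% as lower. Without LF_HF replicate 1, 9 of 36 members fell (25%), where 11.1% of all genes passed, 8.69% as lower and 2.36% as higher. They were 7 antiviral effectors (Oas1a, Oas2, Oas3, Oasl2, Rsad2, Ifit2 and Mx1), the transcription factor Irf8 and the GTPase Gbp2. With all 8 arrays but normexp background correction of the raw signals, 9 members passed, where 15.4% of all genes did and 5.9% passed as lower: Bst2, Ifit3, Irf8, Oas1a, Oasl1, Oasl2, Rsad2 and Usp18 fell and Mx1 rose. The members' median difference was -0.34 with all arrays and -0.43 without that array, against -0.02 and 0.12 over all genes. Under other scalings and normalizations of all 8 arrays, the median of all genes lay between -0.22 and 0.14, and that of the members between -0.40 and -0.13. The gap between them depended on the setting. After normexp and quantile normalization the members' median was -0.13, near the -0.11 of all genes. After quantile normalization of the processed signal it was -0.40, against -0.22. Both LF_HF arrays were below both LF_LF arrays for 17 of 35 members (48.6%), where 21.3% of all genes were, and above them for 7 (20%), where 20.9% of all genes were. These counts take in LF_HF replicate 1, which read bright genes lower, and the shares of all genes were not matched for level. Among the 17, that array was the lowest of all 8 for Bst2, Ddx58, Eif2ak2, Isg15, Parp14 and Stat2.

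The oligoadenylate synthetases lie in a cluster on mouse chromosome 5. Oas1a (probe at chr5:121348348-121348407, mm9, the build of the array files) had levels of -0.02 and -0.33 in LF_HF livers, against 1.38 and 1.37 in LF_LF livers. Both LF_HF arrays were below both LF_LF arrays, with a wide gap. Its difference was -1.55 (SE 0.382, limma adjusted p = 0.0943) with all arrays and -1.71 (SE 0.406, adjusted p = 0.0461) without LF_HF replicate 1, which is 3.27-fold lower. Oas2 (chr5:121180434-121180493) had -2.50 and -3.12 in LF_HF livers, against -1.40 and -1.40 in LF_LF livers. The groups again did not overlap, and Oas2 differed by -1.41 (SE 0.368, limma adjusted p = 0.111) with all arrays and by -1.72 (SE 0.335, adjusted p = 0.0245) without replicate 1. Oas3 (chr5:121203598-121203657) had -1.30 and -5.92 in LF_HF livers, against -3.94 and -4.12 in LF_LF livers. Its LF_HF arrays lay on either side of LF_LF, and the lower one was not well above background. Without replicate 1, Oas3 was at least 1.78-fold lower in LF_HF (limma adjusted p = 0.0242), while with all arrays its difference was 0.42 (adjusted p = 0.904).

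Oasl2, an oligoadenylate synthetase-like protein encoded at a separate place on the same chromosome (chr5:115362168-115362227), had -0.99 and -1.31 in LF_HF livers, against 0.85 and 0.43 in LF_LF livers. Both LF_HF arrays were the lowest of the 8. Its difference was -1.79 (SE 0.364, limma adjusted p = 0.0541) with all arrays, the lowest adjusted p of any member in this comparison, and -1.95 (SE 0.375, adjusted p = 0.0238) without replicate 1. Rsad2 (chr12:27127859-27127918) had -0.58 and -1.01 in LF_HF livers, against 0.74 and 1.09 in LF_LF livers. These too were the lowest 2 of 8 arrays, and the difference was -1.71 (SE 0.38, limma adjusted p = 0.0706) with all arrays and -1.93 (SE 0.389, adjusted p = 0.0275) without replicate 1.

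Irf8, a transcription factor of the interferon response that also directs the development of phagocytes and dendritic cells (probe at chr8:123280324-123280383), had 1.03 and 0.15 in LF_HF livers, against 1.69 and 1.62 in LF_LF livers. The groups did not overlap, and the LF_HF arrays were further apart than any other pair. Its difference was -1.07 (SE 0.364, limma adjusted p = 0.207) with all arrays and -1.50 (SE 0.251, adjusted p = 0.0158) without replicate 1. Gbp2, a GTPase that attacks membranes around pathogens (chr3:142300719-142300778), had -0.10 and -1.31 in LF_HF livers, against 0.51 and 0.33 in LF_LF livers. The second LF_HF array was far below the rest, and the difference was -1.12 (SE 0.429, limma adjusted p = 0.253) with all arrays and -1.73 (SE 0.266, adjusted p = 0.0122) without replicate 1.

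Ifit2, which binds RNA and can promote cell death (chr19:34650244-34650303), had -0.42 and -3.83 in LF_HF livers, against -1.87 and -1.56 in LF_LF livers. Mx1, a GTPase that blocks influenza viruses where it is functional (chr16:97669616-97669675), had -1.05 and -7.13 in LF_HF livers, against -4.69 and -4.21 in LF_LF livers. For both genes 1 LF_HF array was the highest of all 8 and the other the lowest. Without replicate 1, Ifit2 differed by -2.11 (SE 0.305, limma adjusted p = 0.0104), and Mx1, not well above background on the remaining LF_HF array, was at least 1.34-fold lower. Mx1 passed the filter on dim probes through LF_LF alone, the group in which it was highest in that fit. Its lower calls against LF_LF, including the one counted among the members above, are therefore partly fixed by the filter and are given as a description. The same holds for its call in a test over all groups in that fit. With all arrays the differences were -0.41 and 0.36, and neither passed.

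**Figure D3:**
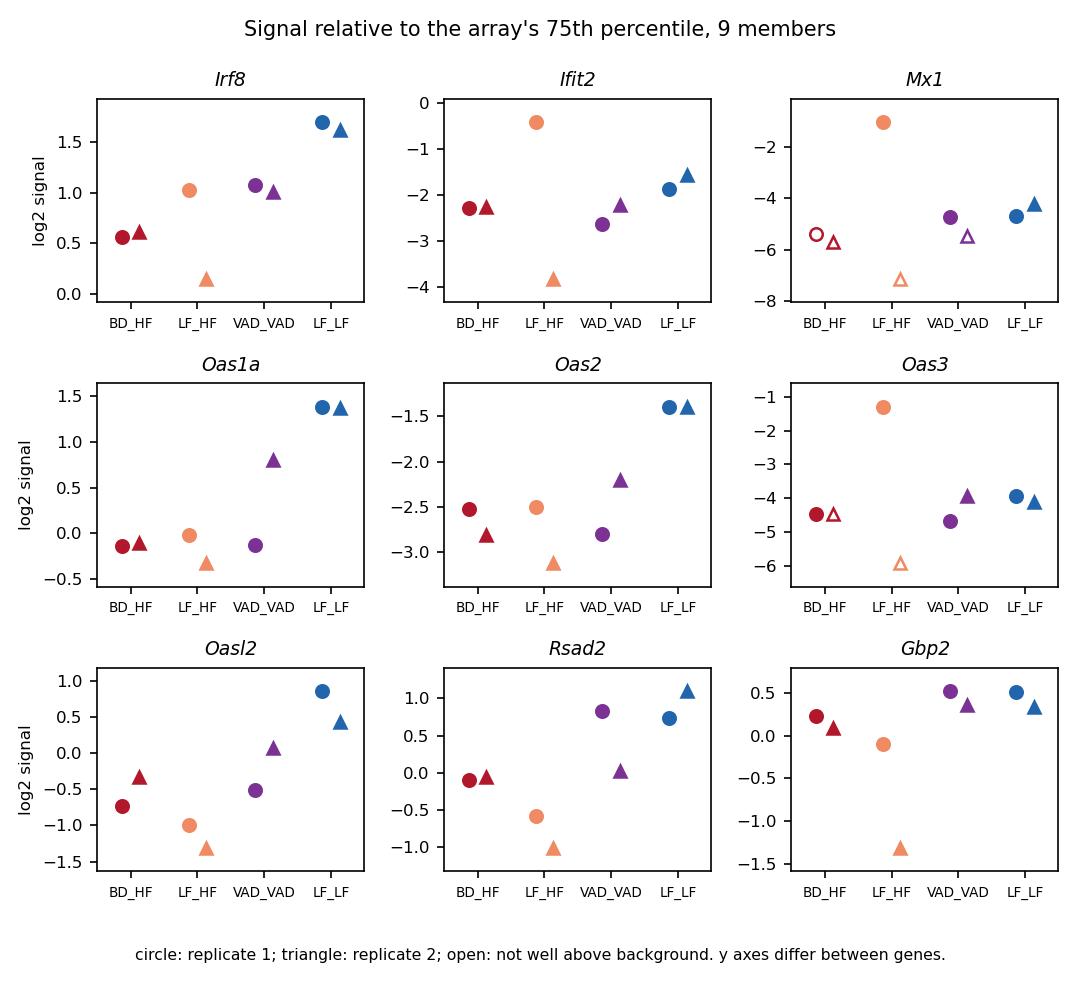
Each panel is 1 of the 9 members called without LF_HF replicate 1; the y axis is log2 signal relative to the array's 75th percentile, with its own range in each panel, and the x axis is the diet group. Circles are replicate 1, triangles replicate 2, and open symbols were not well above background; in Oas1a, Oas2, Oasl2 and Irf8 every array of the other groups lies below both LF_LF arrays, while LF_HF replicate 1 is the highest array in Ifit2, Mx1 and Oas3.

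Which LF_HF array was used decided part of these calls. With LF_HF replicate 1 alone in the group, 7 members passed, where 24.3% of all genes passed and 9.09% passed as lower: Oas1a, Oasl2, Rsad2 and Bst2 were lower, and Ifit2, Mx1 and Oas3 were higher. Oas1a was lower with either array alone, with differences of -1.71 (limma adjusted p = 0.0461) with replicate 2 and -1.40 (adjusted p = 0.049) with replicate 1. Oasl2 differed by -1.95 (limma adjusted p = 0.0238) with replicate 2 and by -1.64 (adjusted p = 0.0249) with replicate 1. Rsad2 differed by -1.93 (limma adjusted p = 0.0275) with replicate 2 and by -1.50 (adjusted p = 0.0361) with replicate 1. Ifit2, Mx1 and Oas3 passed in opposite directions with the 2 arrays: with replicate 1 they differed by 1.30, 3.40 and 2.73. Over the 21 settings run, Oas1a, Oasl2 and Rsad2 were lower in LF_HF in each, and they passed in 6, 7 and 7 of these settings. Of 35 members with both values, 25 had the same sign with either array and 10 had opposite signs.

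**Figure D4:**
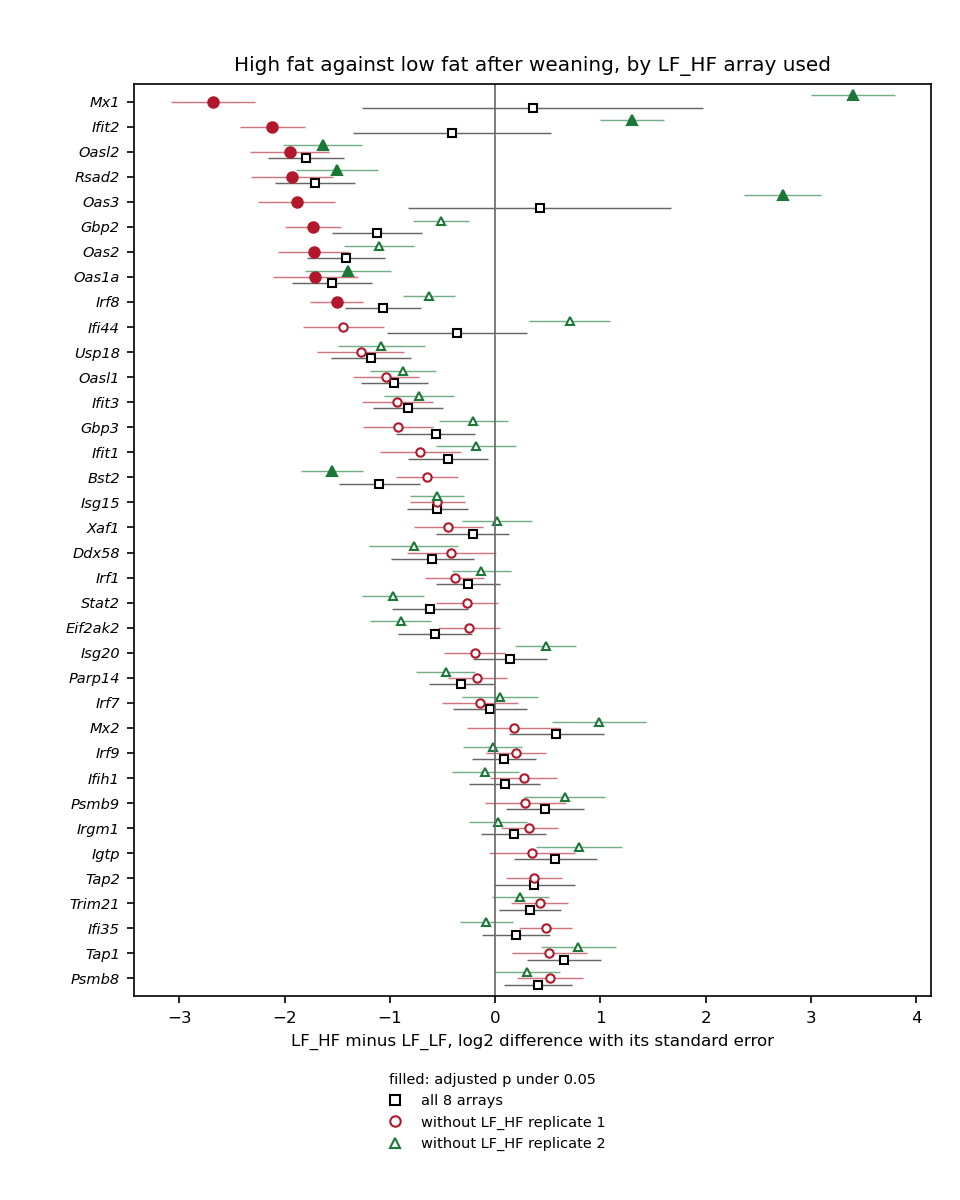
Rows are the 36 members and the x axis is the LF_HF minus LF_LF difference on the log2 scale; bars are the standard error. Squares use all 8 arrays, circles leave out LF_HF replicate 1 and triangles leave out LF_HF replicate 2, and filled symbols passed at adjusted p under 0.05. Oasl2, Rsad2 and Oas1a have filled symbols left of 0 with either array, while Mx1, Ifit2 and Oas3 have filled symbols on both sides of 0; Mx1 and Oas3 were not well above background on LF_HF replicate 2.

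The calls without LF_HF replicate 1 also rest on the LF_LF arrays: 1 member passed when LF_LF replicate 1 was left out as well, where 2.65% of all genes did, 0 when LF_LF replicate 2 was, where 3.16% did, and 4 when either BD_HF array was, where 7.58% did. Among members that did not pass in either fit, Usp18, the protease that removes Isg15 from proteins and damps receptor signalling, had 0.64 and 0.44 in LF_HF livers, against 1.72 and 1.71 in LF_LF livers. The groups did not overlap, and its difference was -1.18 (SE 0.382, limma adjusted p = 0.186) with all arrays. Isg15 had 1.85 and 1.85 in LF_HF livers, against 2.31 and 2.50 in LF_LF livers, also without overlap, with a difference of -0.55 (SE 0.289, limma adjusted p = 0.391). Bst2 (tetherin, which holds budding virus at the cell surface and marks plasmacytoid dendritic cells) had 5.20 and 6.10 in LF_HF livers, against 6.75 and 6.74 in LF_LF livers. Its groups did not overlap and it differed by -1.10 (SE 0.386, limma adjusted p = 0.217).

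The antigen processing members had the other sign. Psmb9, Tap1, Psmb8 and Tap2 lie side by side in the MHC region of chromosome 17, with probes between chr17:34319174-34319233 and chr17:34351722-34352309 (mm9). All 4 had positive differences in LF_HF minus LF_LF, with a median of 0.44 in both fits, and 0 passed; none had an unadjusted p under 0.05 with all arrays in limma. These signs were kept under every setting that gave a value. Tap1 had -0.11 and -0.39 in LF_HF livers, against -0.81 and -1.003 in LF_LF livers. Its groups did not overlap, and its difference was 0.65 (SE 0.351, limma adjusted p = 0.404) with all arrays. The 2 sensors, Ifih1 and Ddx58, recognise double-stranded viral RNA in the cytoplasm, and their differences were 0.09 and -0.59 with all arrays, neither past the test; the probes of Ddx58 differed in sign from each other.

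Several markers of monocytes and macrophages were lower on the same arrays. The summed signal of 10 such markers, most of which came from Lyz2, in units of each array's 75th percentile, was 28.9 and 28.3 in LF_HF livers, against 127 and 111 in LF_LF livers. With all arrays, 4 of the 10 fell in LF_HF (Lyz2, Itgax, Cd68 and Cx3cr1), and without replicate 1, 7 of 10 fell. Itgam, Ccr2 and Ly6c1 went the other way on LF_HF replicate 1, which was above both LF_LF arrays for each, and Itgam passed as higher when that array stood alone for LF_HF, with a difference of 1.95 (limma adjusted p = 0.0329). Lyz2, the macrophage lysozyme, differed by -2.43 (SE 0.339, limma adjusted p = 0.0199), and 7 to 10 of the 10 markers were well above background on each array, none of them at 0. Kupffer cell markers summed to 71.7 and 64.5 in LF_HF livers, against 110 and 108 in LF_LF livers. That list was divided: with all arrays 4 of its 10 genes had positive differences, 6 had negative ones and 0 passed. Both LF_HF arrays were above both LF_LF arrays for Clec4f, Timd4 and Folr2. Plasmacytoid dendritic cell markers summed to 3.06 and 0.573 in LF_HF livers, against 1.48 and 1.34 in LF_LF livers. Other cell types moved as well. All 8 stellate cell markers had negative differences with all arrays, and Pdgfrb fell (-2.52, limma adjusted p = 0.0165). Of 5 cholangiocyte markers, Spp1 fell (-2.02, limma adjusted p = 0.0414), as did Krt19, which had a value on 1 LF_HF array (-2.73, adjusted p = 0.0467), and of 9 sinusoidal endothelial markers 8 had negative differences and 0 passed in that fit. The part of any of these cells in the members' differences was not tested, and in bulk tissue fewer cells of a type and less RNA per cell cannot be told apart.

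BD_HF and LF_LF livers differed in maternal diet and in post-weaning diet, and their comparison, which the study's design does not name, holds neither LF_HF array in its means. With all 8 arrays 0 of 36 members passed, where 1.51% of all genes passed, 1.05% as lower and 0.455% as higher, and 10 (27.8%) had an unadjusted p under 0.05, of which 8 were lower and 2 higher in BD_HF, where 12.8% of all genes did, 7.28% as lower and 5.49% as higher. Without LF_HF replicate 1, which here changes only the shared estimate of spread, Oas1a, Oas2 and Irf8 fell (8.33% of members), where 9.15% of all genes passed, 6.31% as lower and 2.84% as higher. The members' share was near that of all genes. Both BD_HF arrays were below both LF_LF arrays for 16 of 36 members (44.4%), where 25.9% of all genes were, and above them for 10 (27.8%), where 34.2% were. The median difference of members was -0.12, against 0.11 over all genes.

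Oas1a had -0.14 and -0.11 in BD_HF livers, against 1.38 and 1.37 in LF_LF livers. The pairs were tight and far apart, and the difference was -1.50, with an SE of 0.331 and a limma adjusted p of 0.0426 without LF_HF replicate 1. Oas2 had -2.52 and -2.81 in BD_HF livers, against -1.40 and -1.40 in LF_LF livers. Without overlap between groups it differed by -1.27 (SE 0.274, limma adjusted p = 0.0403) in that fit. Irf8 had 0.57 and 0.61 in BD_HF livers, against 1.69 and 1.62 in LF_LF livers, and differed by -1.06 (SE 0.205, limma adjusted p = 0.028). All 3 calls were lost when any BD_HF or LF_LF array was left out as well, while 10 members passed when either VAD_VAD array was, where 14.8% of all genes did. When only the 4 arrays of these 2 groups were fitted, 10 members passed, where 14.8% of all genes did and 9.42% passed as lower: Oas1a, Usp18, Oas2, Irf8, Oasl2, Rsad2, Bst2, Mx1 and Ifi44 fell and Psmb9 rose. For this comparison the fits that left out a VAD_VAD array as well rest on the same 4 arrays, since a lone array in a group adds nothing to the spread. They are the same result and not separate support.

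Usp18 had 0.30 and 0.50 in BD_HF livers, against 1.72 and 1.71 in LF_LF livers, and differed by -1.32 (SE 0.212, limma adjusted p = 0.0118) over those 4 arrays. Mx1 was not well above background on either BD_HF array and was at least 1.47-fold lower there, again a description, since it was kept through LF_LF alone. Psmb9, the immunoproteasome subunit that trims peptides for MHC class I, had 3.84 and 3.99 in BD_HF livers, against 2.94 and 3.09 in LF_LF livers. It differed by 0.90 (SE 0.213, limma adjusted p = 0.0396) over the 4 arrays and by the same amount, with adjusted p = 0.375, over all 8. Tap1 had -0.19 and 0.35 in BD_HF livers, against -0.81 and -1.003 in LF_LF livers, a difference of 0.99 (limma adjusted p = 0.0542 over the 4 arrays and 0.289 over 8).

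By role, 15 of 19 antiviral effectors had negative differences in BD_HF minus LF_LF (median -0.43) and all 4 antigen processing members had positive ones (median 0.75), and 0 of either role passed with all 8 arrays. The transcription factors were divided: Irf1, which drives MHC class I and immunoproteasome genes, had 3.13 and 3.48 in BD_HF livers, against 2.80 and 2.77 in LF_LF livers (difference 0.52, limma adjusted p = 0.565 with all arrays), while Irf8 was lower. Stat2 and Irf7, the factor that amplifies interferon production, had differences of -0.03 and -0.25. The monocyte and macrophage markers summed to 41.0 and 48.4 in BD_HF livers, against 127 and 111 in LF_LF livers. Of these 10 markers, 1 fell with all arrays (Itgax, adjusted p = 0.0413 in limma) and 5 fell without LF_HF replicate 1. With all arrays the stellate cell marker Pdgfrb also fell, and the Kupffer cell marker Timd4 and the hepatocyte marker Cyp2e1 rose. The 10 Kupffer cell markers were divided, with 5 positive and 5 negative differences, and Marco among them differed by -2.19. Stellate cell markers had 2 positive and 6 negative differences, and hepatocyte markers 9 positive and 2 negative. The part of these cells in the differences was not tested.

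VAD_VAD and LF_LF shared the low fat content and differed in vitamin A. With all 8 arrays 0 of 36 members passed, where 0.57% of all genes passed, 0.478% as lower and 0.0922% as higher; 7 (19.4%) had an unadjusted p under 0.05, of which 4 were higher and 3 lower in VAD_VAD, where 10.3% of all genes did. Again 0 members passed without LF_HF replicate 1, where 5.28% of all genes did, 3.94% as lower and 1.34% as higher, and 11 (30.6%) had an unadjusted p under 0.05 in limma, where 22.2% of all genes did. When VAD_VAD replicate 2 was left out as well, 4 members passed, 1 as higher and 3 as lower, where 11.7% of all genes passed and 6.79% passed as lower. Both VAD_VAD arrays were below both LF_LF arrays for 10 of 36 members (27.8%), where 25.5% of all genes were, and above them for 14 (38.9%), where 32.4% were. The median difference of members was 0.15, against 0.09 over all genes.

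The lowest adjusted p was that of Oas2, which had -2.80 and -2.20 in VAD_VAD livers, against -1.40 and -1.40 in LF_LF livers. The groups did not overlap, and the difference was -1.10 (SE 0.368, limma adjusted p = 0.338) with all arrays and adjusted p = 0.0758 without LF_HF replicate 1. Oas1a had -0.13 and 0.80 in VAD_VAD livers, against 1.38 and 1.37 in LF_LF livers; the VAD_VAD pair was wide but below LF_LF, with a difference of -1.04 (SE 0.382, limma adjusted p = 0.396). Usp18, by contrast, had 2.50 and 1.56 in VAD_VAD livers, against 1.72 and 1.71 in LF_LF livers. Its VAD_VAD arrays lay on either side of LF_LF. Over the 4 groups Usp18 had the lowest adjusted p of any member in the moderated F test with all arrays, 0.158, where 1.06% of genes passed. Without LF_HF replicate 1 the F test called 4 members, Gbp2, Ifit2, Mx1 and Irf8, where 9.9% of genes passed.

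Igtp, an interferon gamma-induced GTPase, had the largest positive difference of any member in this comparison, with 3.89 and 4.68 in VAD_VAD livers, against 3.42 and 3.04 in LF_LF livers. The groups did not overlap, and the difference was 1.06 (SE 0.393, limma adjusted p = 0.4) with all arrays. Irf9, a DNA-binding partner of Stat2, had 2.47 and 2.10 in VAD_VAD livers, against 1.51 and 1.40 in LF_LF livers, a difference of 0.83 (SE 0.307, limma adjusted p = 0.399). Tap1 had -0.14 and 0.35 in VAD_VAD livers, against -0.81 and -1.003 in LF_LF livers, a difference of 1.01 (SE 0.351, limma adjusted p = 0.36). None of the 3 passed in either fit. By role, 11 of 19 antiviral effectors had negative differences (median -0.27), and all 4 antigen processing members had positive ones (median 0.65). Neutrophil markers summed to 19.5 and 25.8 in VAD_VAD livers, against 4.78 and 4.61 in LF_LF livers. Most of that sum came from S100a9 on each of these arrays. Monocyte and macrophage markers summed to 40.6 and 62.0 in VAD_VAD livers, against 127 and 111 in LF_LF livers. Of the 10 monocyte and macrophage markers 3 fell without LF_HF replicate 1 (Cx3cr1, Itgax and Lyz2), and of 7 neutrophil markers S100a8 and S100a9 rose. Of 8 stellate cell markers, Lrat, Ngfr and Pdgfrb fell with all arrays. The part of these cells was not tested.

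**Figure D5:**
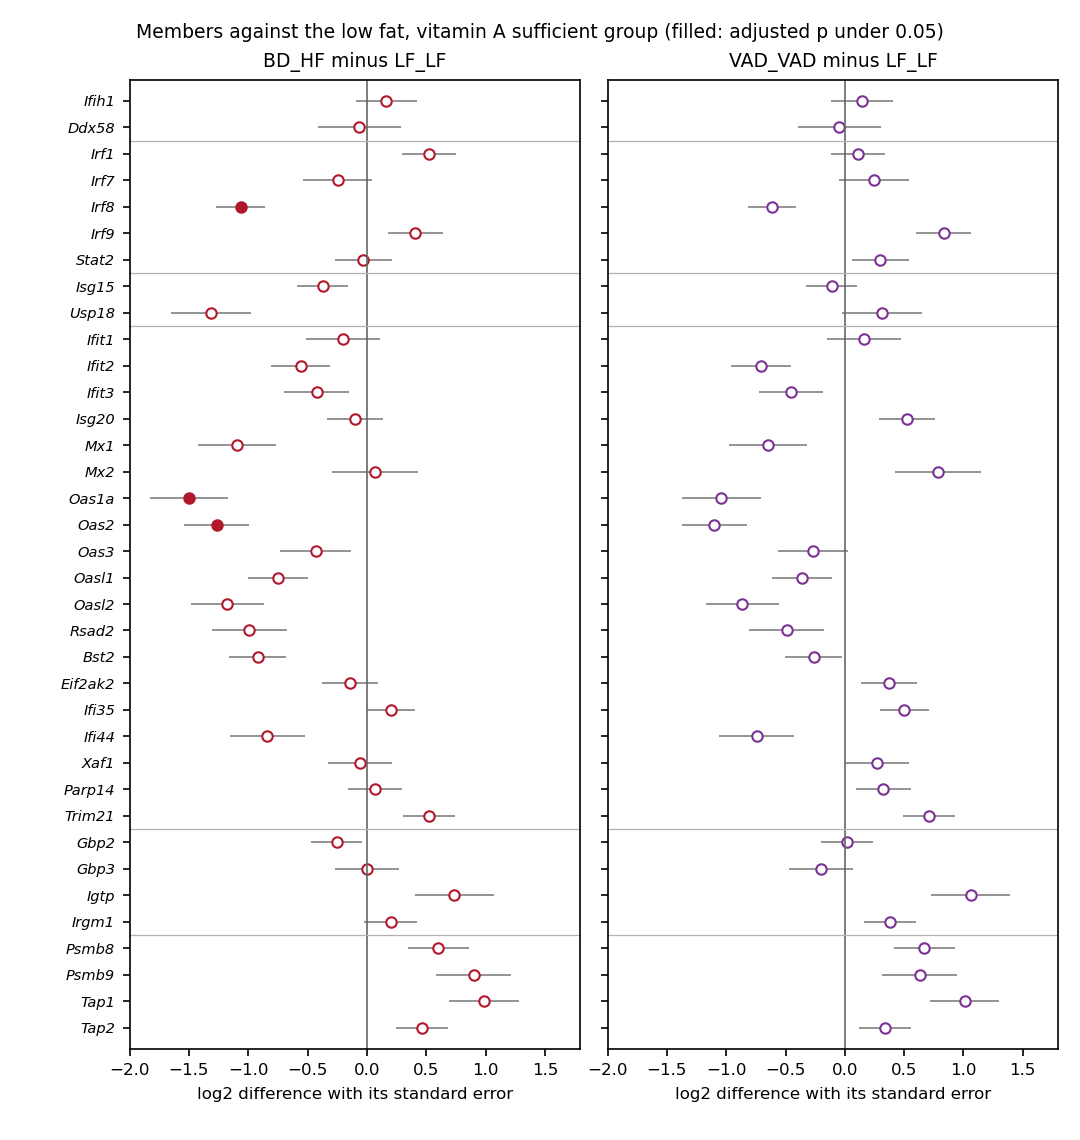
The left panel shows BD_HF minus LF_LF and the right panel VAD_VAD minus LF_LF, for all 36 members in the order of their roles, in the fit without LF_HF replicate 1; the x axis is the log2 difference, bars are the standard error, and filled points passed at adjusted p under 0.05. Filled points are Irf8, Oas1a and Oas2 on the left and none on the right; the 4 antigen processing members lie right of 0 in both panels.

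BD_HF and LF_HF shared the high fat diet and differed in the maternal diet. With all 8 arrays 0 of 36 members passed, where 0.00576% of all genes (1 gene) passed, and 1 member, Irf1, had an unadjusted p under 0.05, where 5.45% of all genes did. Without LF_HF replicate 1, 0 members passed, where 0% of all genes did, and 6 (16.7%) had an unadjusted p under 0.05 in limma, each higher in BD_HF, where 8.64% of all genes did, 6.55% as higher. Without LF_HF replicate 2 instead, 4 of 36 members passed as lower in BD_HF (Ifi44, Ifit2, Mx1 and Oas3), where 17.5% of all genes passed and 14% passed as lower, so the members' share was not above that of all genes. Both BD_HF arrays were above both LF_HF arrays for 15 of 35 members (42.9%), where 17.5% of all genes were, and below them for 1, Irf7, where 9.56% of all genes were. These counts take in LF_HF replicate 1, which read bright genes lower, and the shares of all genes were not matched for level. Among the 15, the kept probes of Ddx58, Irf9, Parp14 and Rsad2 differed in sign within each gene. Irf1 had 3.13 and 3.48 in BD_HF livers, against 2.65 and 2.40 in LF_HF livers. The groups did not overlap, and the difference was 0.78 (SE 0.306, limma adjusted p = 0.785). Gbp2 had 0.23 and 0.09 in BD_HF livers, against -0.10 and -1.31 in LF_HF livers, without overlap, and its adjusted p of 0.161 (limma, difference 1.47) without LF_HF replicate 1 was the lowest of the members. The members' median was 0.18 with all arrays, against 0.17 over all genes, and it was -0.12 for both when each array was scaled over probes well above background on all arrays.

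Some members separated LF_LF from every other array, a count that uses no test. Of the 35 members with a value on all 8 arrays, 7 (20%) were below both LF_LF arrays on all the other 6: Bst2, Ifit3, Irf8, Oas1a, Oas2, Oasl1 and Oasl2. The share of all genes was 9.48%. Another 6 members (17.1%) were above both LF_LF arrays on all 6: Igtp, Irgm1, Psmb8, Psmb9, Tap1 and Trim21, where 9.27% of all genes were. These comparisons share the LF_LF arrays, so a high or low LF_LF pair moves each of them. Ifit3, an adaptor among the Ifit proteins, had 1.14 and 1.42 in BD_HF livers, 0.98 and 0.77 in LF_HF livers and 1.08 and 1.42 in VAD_VAD livers, against 1.46 and 1.94 in LF_LF livers. Oasl1, which restrains translation of Irf7 in mice, had 0.91 and 0.93 in BD_HF livers, 0.80 and 0.64 in LF_HF livers and 1.59 and 1.04 in VAD_VAD livers, against 1.65 and 1.69 in LF_LF livers. For both genes the margin between the nearest arrays was small. It was small too for Bst2, with 6.70 on VAD_VAD replicate 2 against 6.74 on LF_LF replicate 2. Irgm1 had 2.86 on LF_HF replicate 1 against 2.85 on LF_LF replicate 2. Psmb8, another immunoproteasome subunit, had 3.69 and 3.74 in BD_HF livers, 3.41 and 3.63 in LF_HF livers and 3.50 and 4.05 in VAD_VAD livers, against 3.06 and 3.15 in LF_LF livers. Trim21, an antibody receptor in the cytoplasm that targets coated virus to the proteasome, had -1.31 and -1.18 in BD_HF livers, -1.52 and -1.34 in LF_HF livers and -0.97 and -1.13 in VAD_VAD livers, against -1.66 and -1.87 in LF_LF livers. Every array of the other groups was above LF_LF for these 2 genes. Of the 7 lower members 6 had a promoter window and 3 an ISRE match, and of the 6 higher members all had a window and 3 a match.

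The rest of the pathway was read from 6 lists. Of 7 measured interferon ligand genes, 0 passed in any of the 4 comparisons in either fit; their summed signal was 2.73 and 0.727 in LF_HF livers and 0.763 and 0.504 in LF_LF livers, and Ifnb1 and Ifna4 were among 6 ligand genes that did not pass the filter on dim probes. Among 10 receptor and JAK-STAT genes, Ifnlr1, the specific chain of the interferon lambda receptor, was not well above background on any BD_HF or LF_HF array. It was at least 2.05-fold lower in BD_HF than in LF_LF and at least 1.62-fold lower in LF_HF than in LF_LF. It passed the filter on dim probes through LF_LF alone, so these differences are partly fixed by the filter and are given as a description; no other gene of the list passed with all arrays. Il10rb, the chain it shares with the interleukin 10 receptor, fell in LF_HF without replicate 1, with a difference of -1.29 (limma adjusted p = 0.0494). Ifnar1 and Ifnar2, the chains of the type I receptor, passed in neither fit.

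Of 15 genes for sensing nucleic acid, 0 passed with all arrays, and in LF_HF minus LF_LF without replicate 1, 2 fell and 1 rose. The endosomal RNA receptor Tlr7 differed by -1.71 (limma adjusted p = 0.0164), and Cgas, the sensor of cytoplasmic DNA, was at least 3.52-fold lower, being not well above background on the remaining LF_HF array (adjusted p = 0.0104). Cgas had -2.17 and -4.67 in LF_HF livers, against -2.78 and -2.93 in LF_LF livers, so the LF_HF arrays lay on either side of LF_LF. Tlr9, the endosomal receptor for DNA, differed by 1.26 (limma adjusted p = 0.0355). In BD_HF minus LF_LF Cgas was the one gene of this list that passed in that fit, with a difference of -1.11 (limma adjusted p = 0.028). Of 10 negative regulators, Socs1, which blocks JAK kinases, fell in LF_HF minus LF_LF without LF_HF replicate 1, with a difference of -1.60 (limma adjusted p = 0.021), and 0 passed in the other comparisons in either fit.

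Of 41 other interferon-induced genes, 2 fell in LF_HF with all arrays: Ifi27l2a, with a difference of -2.08 (limma adjusted p = 0.038) and Plac8, with -1.68 (adjusted p = 0.0439). Ifi27l2a had 2.25 and 2.85 in LF_HF livers, against 4.63 and 4.62 in LF_LF livers, with no overlap. Without LF_HF replicate 1, 9 of the 41 fell and 0 rose, where 11.1% of all genes passed; among them the chemokines Cxcl9 and Cxcl10, which draw T cells, differed by -2.34 (limma adjusted p = 0.0124) and by -2.81 (adjusted p = 0.00962). Ifi27l2a and Plac8 were again among the 9, and Slfn5 differed by -1.70, Ifi204 by -1.60, Tgtp1 by -1.75 and Cmpk2, a kinase encoded next to Rsad2, by -1.41. Tgtp1 had 1.62 and -0.66 in LF_HF livers, against 1.13 and 1.07 in LF_LF livers, so its sign depended on which LF_HF array was used. In the same fit 3 of the 41 fell in BD_HF minus LF_LF (Ifi27l2a, Cmpk2 and Plac8), where 6.31% of all genes passed as lower. In VAD_VAD minus LF_LF 1 fell, where 3.94% of all genes did: Cxcl10, with a difference of -1.94 (limma adjusted p = 0.0235). Both shares were near or below those of all genes. Of 12 genes of MHC class I and the immunoproteasome outside the 36 members, 0 passed in any comparison in either fit, with a median of 0.21 in BD_HF minus LF_LF.

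The members not yet given by array passed in no comparison in either fit. Ifi44, an interferon-induced protein that restrains virus replication, had -0.86 and -0.93 in BD_HF livers, 0.65 and -1.50 in LF_HF livers and -1.22 and -0.38 in VAD_VAD livers, against -0.16 and 0.04 in LF_LF livers. Its BD_HF and VAD_VAD arrays were all below LF_LF, while its LF_HF arrays lay on either side. Mx2, the paralogue of Mx1, had 0.12 and -0.19 in BD_HF livers, 0.88 and 0.07 in LF_HF livers and 1.18 and 0.17 in VAD_VAD livers, against -0.23 and 0.02 in LF_LF livers, so that all LF_HF and VAD_VAD arrays were above LF_LF; its differences were 0.58 (limma adjusted p = 0.571) in LF_HF and 0.78 (adjusted p = 0.632) in VAD_VAD. Eif2ak2 (PKR), a kinase that stops translation when it binds double-stranded RNA, had -0.65 and -0.96 in BD_HF livers, -1.56 and -0.91 in LF_HF livers and -0.13 and -0.45 in VAD_VAD livers, against -0.70 and -0.63 in LF_LF livers. Its VAD_VAD arrays were above LF_LF and its LF_HF arrays below, with differences of 0.37 (limma adjusted p = 0.759) in VAD_VAD and -0.57 (adjusted p = 0.462) in LF_HF. Gbp3, a relative of Gbp2, had 0.72 and 0.00 in LF_HF livers, against 1.03 and 0.82 in LF_LF livers, a difference of -0.56 (SE 0.376, limma adjusted p = 0.501). Irgm1, a GTPase that acts with Igtp on vacuoles around pathogens, differed from LF_LF by 0.20 in BD_HF, 0.18 in LF_HF and 0.38 in VAD_VAD. Differences from LF_LF in Ifit1, the RNA exonuclease Isg20, Ifi35, the pro-apoptotic Xaf1 and the ADP-ribosyltransferase Parp14 lay between -0.45 (Ifit1 in LF_HF) and 0.53 (Isg20 in VAD_VAD) with all arrays, and none passed in either fit.

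Several members belong to families with close copies, among them the Oas, Ifit and Gbp genes, and which copy a probe reads is uncertain. Of 12 members with more than 1 kept probe, the probes shared their sign in 9 in LF_HF minus LF_LF and in BD_HF minus LF_LF, in 10 in VAD_VAD minus LF_LF and in 6 in BD_HF minus LF_HF.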

How the data were processed

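Per the file headers, the software that read the array images was Agilent Feature Extraction 10.7.3.1, and the submitters' processing notes also name limma, whose role and version are not given in the sources used here. The deposited processed signal is an intensity on the linear scale after detrending and background handling, per the file headers, with no scaling between arrays recorded. The deposited series table holds the same intensities, with a largest relative difference of 0.497%. A symbol was found for 28228 of 41174 gene probes (68.6%); probe positions are in mm9, per the file headers.

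From these, log2 intensity minus each array's 75th percentile was computed, with outlier spots left out and spots of a probe averaged. A probe was kept if 1 or more groups had it well above background on each of their arrays (26224), and the one with the highest mean represented its gene (17354 genes). The comparisons were fitted in R 4.3.3 with limma 3.58.1 and its eBayes step (with all arrays, residual df of 4 and prior df of 3.42; without LF_HF replicate 1, 3 and 3.40), with Benjamini-Hochberg adjustment over all genes and a threshold of 0.05. Tap2 entered with 1 LF_HF array. Where every array of a group was not well above background, the fold is a bound: each such array took the higher of its own value and the lowest value that was well above background on it. The number of arrays limits precision. The fit was tested on simulated data whose spread was taken from BD_HF, LF_LF and VAD_VAD. That test therefore does not cover the wider spread between the LF_HF arrays.

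The members, lists and comparisons were chosen with earlier results of these data known. Values on every array are given for members called in at least 1 comparison in either fit, and from the other lists at most the 8 called genes with the lowest p are named; the other members named with values were chosen after their values were seen. Replicate 1 of each group lay on 1 slide and replicate 2 on the other; slide differences correlated between groups with r from 0.0994 to 0.303. Alternatives covered background correction, scaling, the filter on dim probes, outlier spots, probe averaging, the deposited table, eBayes options, the groups fitted, the slide as a block, and each array left out.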

Additional observations from a re-analysis of the deposited data

How the results depend on the processing

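Counts are of members or of all genes past adjusted p 0.05 in limma. Settings run on the fit without LF_HF replicate 1 were chosen after seeing the data. For the alternatives to that fit and for the F test, this section gives no counts of all genes. Those member counts therefore do not show whether members moved more than genes at large. In BD_HF minus LF_HF 0 members passed, and 0 to 4 with 1 array left out. All genes there were 1; they were 0 after quantile normalization, with the percentile over probes above background on all arrays, with no filter on dim probes, with only probes above background on all arrays, with outlier spots kept, with these 2 groups alone and with the replicate block, and 0 to 3034 with 1 array left out. In LF_HF minus LF_LF 0 members passed; there were 9 after normexp and the 75th percentile, 5 after normexp and quantile, 2 after quantile normalization, 3 with only probes above background on all arrays, 3 with trend and robust eBayes and 0 to 9 with 1 array left out. All genes there were 432 (107 higher, 325 lower). They were 2672 (1648 higher, 1024 lower) after normexp and the 75th percentile, 1404 after normexp and quantile, 892 after quantile normalization, 186 (85 higher, 101 lower) with the percentile over probes above background on all arrays, 32 with no filter, 807 with trend and robust eBayes, 0 with these 2 groups alone and 0 to 4219 with 1 array left out. In VAD_VAD minus LF_LF 0 members passed with all arrays and under the alternatives to that fit. All genes there were 99 (16 higher, 83 lower); they were 361 (106 higher, 255 lower) after normexp and the 75th percentile, 389 (89 higher, 300 lower) after normexp and quantile, 14 (5 higher, 9 lower) with the percentile over probes above background on all arrays, 0 with no filter, 159 with only probes above background on all arrays, 53 with outlier spots kept, 299 with trend and robust eBayes, 499 with these 2 groups alone, 57 with the replicate block and 0 to 917 with 1 array left out. In BD_HF minus LF_LF 0 members passed; there was 1 after normexp and the 75th percentile, 2 after normexp and quantile, 2 with trend and robust eBayes, 10 with these 2 groups alone and 0 to 3 with 1 array left out. All genes there were 262; they were 699 and 861 after the normexp settings, 167 with the percentile over probes above background on all arrays, 0 with no filter, 149 with outlier spots kept, 164 with the mean of a gene's probes, 610 with trend and robust eBayes, 2573 with these 2 groups alone and 0 to 1588 with 1 array left out. In the F test 0 members passed; there were 3 and 2 after the normexp settings, 4 with trend and robust eBayes and 0 to 7 with 1 array left out. Without LF_HF replicate 1, the 9 members of LF_HF minus LF_LF became 0 to 12 with another array left out. In VAD_VAD minus LF_LF 0 members became 2 and 1 after the normexp settings, 1 with trend and robust eBayes and 0 to 4 with another array left out. In BD_HF minus LF_LF 3 members became 5 and 7 after the normexp settings, 0 with no filter, 5 with only probes above background on all arrays, 7 with trend and robust eBayes and 0 to 10 with another array left out. The 4 members of the F test became 0 with no filter, 9 with trend and robust eBayes and 0 to 11 with another array left out. In LF_HF minus LF_LF, Ifit2, Mx1 and Oas3 differed by 1.30, 3.40 and 2.73 without LF_HF replicate 2 and by -2.11, -2.68 and -1.88 without replicate 1. With the replicate block, which is also the slide, 0 members passed in each comparison with all arrays, and 10 passed in LF_HF minus LF_LF without LF_HF replicate 1. The causes of these shifts were not tested.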
